A study of Mus musculus with 4 samples.

Results

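Semaphorins, plexins, ephrins and Eph receptors were examined in cultured mouse periosteal cells that had been sorted by PDGFRα reporter activity. Members were taken by gene symbol alone: the semaphorins of classes 3 to 7, the plexins A to D, the ephrins A and B, and the Eph receptors A and B. This rule found 51 of the 45802 gene symbols of the table. They were 20 semaphorins, 9 plexins, 8 ephrins and 14 Eph receptors. A value was present in at least 1 library for 48 members and in all 4 libraries for 45, which were 19 semaphorins, 9 plexins, 8 ephrins and 9 Eph receptors. Epha5, Epha6 and Ephb1 had a blank in 1 library each, and Sema5b, Epha8 and Epha10 were blank in all of them.

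These families guide growing axons and migrating cells and are also used between cells of bone. Semaphorins bind plexins, with neuropilins as co-receptors for most of the secreted class 3 ligands, and a bound plexin acts through small GTPases on the cytoskeleton. Ephrins are held at the cell surface and bind Eph receptor tyrosine kinases on a neighboring cell, with signals into both cells. In bone, Sema3a, Sema4d with Plxnb1, and Efnb2 with Ephb4 are known from the exchange between osteoblasts and osteoclasts.

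The cells were from male PDGFRα mT/mG mice 9 to 10 weeks old, in which the Pdgfra promoter drives CreER. Tamoxifen (150 mg/kg per day for 5 days) switches the cells that it reaches from tdTomato to GFP. Hindlimb periosteum was digested 14 days later, and the cells were grown for 1 passage with 10 ng/mL bFGF. They were then sorted as CD31-CD45-Ter119- into PDGFRα reporter+ (GFP) and PDGFRα reporter- (tdTomato) cells. The labels give 3 to 6 mice, pooled, behind each of the 2 libraries per population, where the methods give a different range, and both populations shared the genotype, tamoxifen, culture and sort. The sort was by the reporter, and Pdgfra itself had nearly equal values (7.78 and 7.62 in reporter+, 7.87 and 7.44 in reporter-). The libraries are named here by population and by the number in the heading of their column, 2 or 3. Neither the labels nor the methods say if a shared number means a shared preparation, nor if the libraries of a population came from separate cultures, so that p-values measure the spread between these libraries only.

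Values of genes below are log2 after quantile normalization by the authors. Differences are reporter+ minus reporter-, so that 1 stands for a doubling. Only the marker sums are of linear values, added over the genes of a list and compared between libraries. The quantity under the logarithm is not stated and may or may not be scaled to gene length, so that values were compared between libraries for the same gene and not between genes. Depth is unknown, and the table reached down to −10.07. A bulk value cannot tell fewer cells of a type from less RNA per cell. Of the 45 members with 4 values, 27 had a mean of at least 0 and 18 a mean below 0.

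Markers of 8 cell types were read beside the members. All 10 stromal markers had a value in each library, with sums of 2188 and 2997 in reporter+ against 1904 and 2353 in reporter-. Of these, 4 lay above 0, with Lum (1.83) and Dcn (1.39) higher without overlap, and 6 below, with Postn at −1.14. Of 9 macrophage markers with 4 values, all 9 lay above 0 in the difference, and the summed linear level of the list of 10 was 232 and 272 in reporter+ against 91.8 and 174 in reporter-, with Fcgr1 blank in reporter- library 2. Endothelial markers lay below 0 in 7 of 8 genes. Their list of 10 summed to 2.76 and 3.48 in reporter+ against 3.41 and 6.69 in reporter-. Flt1 and Tie1 were blank in 1 reporter+ library each. Such sums give most weight to the genes with the largest values, Lyz2 for macrophages and Egfl7 for endothelium. Egfl7 had a difference of −0.04. Pecam1 (−3.19), Cdh5 (−4.26) and Emcn (−3.44) were lower in both reporter+ libraries than in either reporter- library. These genes therefore add more to the reporter- sums than to the reporter+ sums. Mural markers lay below 0 in 9 of 10 genes, with sums of 19.0 and 30.6 in reporter+ against 41.2 and 47.8 in reporter-. Osteoclast markers lay above 0 in 6 of 7 genes (sums of 15.7 and 21.8 against 10.8 and 5.09), and Schwann cell markers lay below 0 in 6 of 7 (sums of 3.83 and 1.53 against 4.66 and 2.91, with Sox10 blank in both reporter+ libraries). Muscle markers summed to between 1.37 and 3.00 and lymphocyte markers to between 0.0721 and 0.200, with Myf5, Pax7, Cd3e, Cd3g, Cd79b and Ms4a1 blank throughout. The part of these cells in the differences of the members was not tested.

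Promoter windows are shown for 4 of the 8 members whose populations did not overlap, 1 ephrin, 1 Eph receptor and 2 semaphorins, as examples chosen after their values were seen. Each window runs from 250 bases before to 50 bases after the start that the RefSeq promoter set (GRCm38.p6) uses for the gene, 5′ to 3′ on its strand. For Ephb6 this start lies inside the span of the gene given below. Capitals mark GGGCGG, the core of the GC box, and CCAAT, each on either strand. The windows are those of Ephb6 at chr6:41605261-41605560 (+), Efnb2 at chr8:8661193-8661492 (−), Sema3g at chr14:31217623-31217922 (+) and Sema3c at chr5:17574566-17574865 (+).
Ephb6: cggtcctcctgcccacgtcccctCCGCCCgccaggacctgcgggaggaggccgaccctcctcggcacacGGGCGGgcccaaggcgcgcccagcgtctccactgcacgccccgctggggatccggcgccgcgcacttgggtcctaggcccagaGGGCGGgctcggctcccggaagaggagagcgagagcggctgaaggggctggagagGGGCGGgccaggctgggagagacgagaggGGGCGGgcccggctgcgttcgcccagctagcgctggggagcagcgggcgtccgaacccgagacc
Efnb2: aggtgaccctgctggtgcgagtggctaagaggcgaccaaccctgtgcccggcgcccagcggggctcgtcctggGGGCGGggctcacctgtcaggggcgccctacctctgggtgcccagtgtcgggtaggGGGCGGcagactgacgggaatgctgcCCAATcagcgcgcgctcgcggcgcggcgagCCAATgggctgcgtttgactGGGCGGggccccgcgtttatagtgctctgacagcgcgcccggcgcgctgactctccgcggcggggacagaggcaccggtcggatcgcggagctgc
Sema3g: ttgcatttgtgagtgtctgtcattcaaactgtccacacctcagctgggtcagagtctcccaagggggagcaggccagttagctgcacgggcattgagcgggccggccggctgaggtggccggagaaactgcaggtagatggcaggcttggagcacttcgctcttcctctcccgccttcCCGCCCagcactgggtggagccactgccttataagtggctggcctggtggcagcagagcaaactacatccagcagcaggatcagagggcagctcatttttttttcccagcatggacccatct
Sema3c: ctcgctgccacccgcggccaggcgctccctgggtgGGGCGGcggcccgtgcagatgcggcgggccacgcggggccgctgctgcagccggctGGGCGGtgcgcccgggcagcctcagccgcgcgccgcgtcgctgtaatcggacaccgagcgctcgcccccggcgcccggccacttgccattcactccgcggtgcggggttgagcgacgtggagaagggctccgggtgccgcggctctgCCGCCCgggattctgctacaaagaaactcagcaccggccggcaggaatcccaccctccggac
GGGCGG was found 5 times in the window of Ephb6, 3 times in Efnb2, 1 time in Sema3g and 3 times in Sema3c, and CCAAT 2 times in Efnb2 alone among them. The windows of Ephb6, Efnb2 and Sema3c were rich in CpG (34, 35 and 42), and that of Sema3g held 8. Over the 59 windows found for 45 members, 74.6% held GGGCGG, 33.9% CCAAT and 1.70% TATAAA, the core of the TATA box, on either strand, and the median was 20 CpG. Over all 32851 windows of the same length, the shares were 35.7%, 37.4% and 13.6%, and the median was 7 CpG. The 1 member window with TATAAA was that of Efnb2 printed above, where it is not in capitals. These matches describe letters in a window and are not binding sites.

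None of the 45 members had a limma adjusted p under 0.05 for reporter+ against reporter-, and all their adjusted p-values were 1. Of the 14415 genes with 4 values, 0% passed that threshold. At an unadjusted limma p under 0.05, there was 1 member, Sema3c, against 131 of all genes (0.909%). The libraries of the populations did not overlap for 8 members. Ephb6, Epha3, Efnb2 and Sema3g (4 of 45, 8.89%) were higher in both reporter+ libraries, against 7.59% of all genes. Sema3c, Plxnb2, Plxnb3 and Sema6b (8.89%) were lower in both, against 8.1% of all genes. These shares lay near those of all genes. Within the numbers, 9 members (20.0%) were higher in reporter+ in both number 2 and number 3, against 22.1% of all genes, and 14 (31.1%) were lower in both, against 24.8%, while 22 differed in sign between the numbers. A difference beyond 0.5 with the same sign in both numbers was found for 8 members (17.8%), against 10.3% of all genes. Of these 8, 6 had a mean below 0, which is 33.3% of the 18 such members against 27.8% of all genes with such a mean, and Ephb6 and Efna1 were 2 of the 27 members (7.41%) with a mean of at least 0, against 3.19% of all genes at that level. The median difference was −0.05 over the 45 members and −0.0035 over all genes. It changed sign between the numbers, with 0.05 in number 2 and −0.17 in number 3 over the members. Over all genes these medians were 0.0011 and −0.02.

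**Figure D1:**
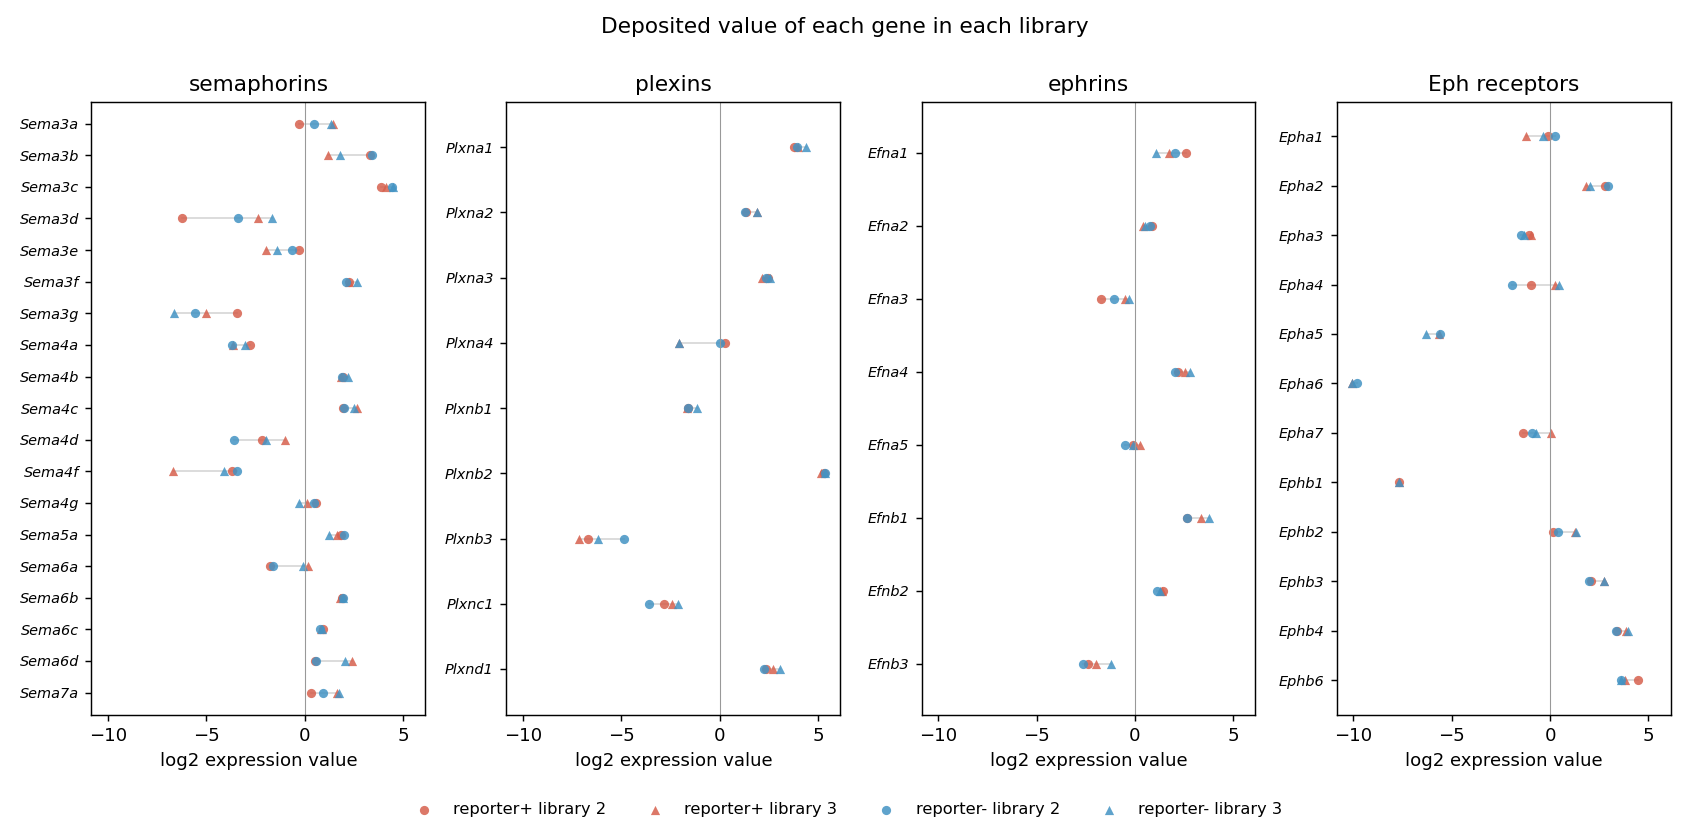
Log2 value of each member with at least 1 value in the 4 libraries, by family, with reporter+ and reporter- in separate colors and the numbers 2 and 3 as separate symbols. For most genes the symbols part by number rather than by color, as for Plxna4 (0.26 and −0.01 in number 2, −2.10 and −2.08 in number 3), and the 8 members without overlap of the colors include Sema3c and Ephb6.

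Semaphorins of class 3 are secreted, and 6 of the 7 lay below 0 in the difference (50.9% of all genes did), with a median of −0.35. The median was −0.12 in number 2 and −0.40 in number 3. Within the numbers, 3 were lower in both (42.9%, against 24.8% of all genes) and 3 changed sign. Sema3c, a ligand for neuropilins known from the outflow tract of the heart, was at 3.84 and 4.13 in reporter+ libraries 2 and 3 and at 4.41 and 4.46 in reporter- libraries 2 and 3. Both reporter+ libraries were below both reporter- libraries. The difference was −0.45 (SE 0.16, adjusted p = 1), with −0.56 in number 2 and −0.33 in number 3. Sema3c is at 5:17574816-17730268. With 1 library left out in turn, the difference stayed between −0.59 and −0.30.

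Sema3g, which is known from endothelial cells and binds neuropilin 2, was higher in reporter+ at −3.44 and −5.03 against −5.59 and −6.63. The populations did not overlap, at levels in the lower reach of the table, and the difference was 1.87 (SE 0.89, adjusted p = 1). It was 2.15 in number 2 and 1.59 in number 3, and between 1.08 (without reporter+ library 2) and 2.67 (without reporter+ library 3) with 1 library left out. Of the 8 endothelial markers with 4 values, 7 lay below 0 (50.9% of all genes did), 4 of them without overlap of the populations (8.1% of all genes), and Vwf was at 0.09. The sort took CD31- cells, and the part of these markers in the value of Sema3g was not tested. Calculated as log2 of the linear value plus 1, the difference of Sema3g was 0.06.

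Sema3d, another secreted ligand, had the largest spread of the class, with −6.22 and −2.40 in reporter+ and −3.40 and −1.70 in reporter-. The populations overlapped, and both libraries numbered 3 were the higher ones. Its difference of −1.76 (SE 1.49) was −2.82 in number 2 and −0.71 in number 3, and without reporter+ library 2 it was 0.14. Sema3a, which is made by cells of the osteoblast lineage and by nerves and protects bone mass, was at −0.31 and 1.41 in reporter+ and at 0.46 and 1.33 in reporter-. Its difference was −0.77 in number 2 and 0.08 in number 3, so that no single direction held. Sema3b (−0.35) and Sema3f (−0.13), which bind neuropilins, and Sema3e (−0.09), which binds Plxnd1 directly, had overlapping populations. Sema3b was lower in reporter+ in both numbers. Sema3f (0.14 in number 2 and −0.40 in number 3) and Sema3e (0.40 and −0.58) changed sign.

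Class 4 semaphorins are bound to the membrane, and 4 of 6 lay above 0 in the difference. The median of 0.10 was 0.07 in number 2 and −0.10 in number 3. Sema4d, the osteoclast product that holds back osteoblasts through Plxnb1, was at −2.20 and −1.02 in reporter+ and at −3.58 and −1.99 in reporter-. Reporter+ was higher within each number, by 1.38 and 0.97, although reporter+ library 2 was below reporter- library 3. The difference of 1.17 had an SE of 0.79 (adjusted p = 1), and it was 0.38 without reporter- library 2, 1.97 without reporter- library 3, and 0.21 with 1 added to the linear value. Cd72, the receptor of Sema4d on leukocytes, had the same order of libraries, at −2.11 and −1.11 in reporter+ and −4.18 and −1.98 in reporter- (difference 1.47, SE 0.92). All 9 macrophage markers and 6 of 7 osteoclast markers with 4 values also lay above 0 (49.1% of all genes did), the exception being Nfatc1 (−0.04). Their medians by number differed, with 1.26 in number 2 and 0.76 in number 3 for macrophage markers. For osteoclast markers they were 0.10 in number 2 and 2.38 in number 3. The sort took CD45- cells, and the part of these markers in these values was not tested.

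Sema4f was at −3.69 and −6.68 in reporter+ and at −3.45 and −4.13 in reporter-. Reporter+ library 3 stood apart from the other three. The difference was −1.40 (SE 1.18), and without that library it was 0.10. Sema4g (0.25) was higher in reporter+ in both numbers. Differences of Sema4a (0.15), a ligand of immune cells, Sema4b (−0.16) and Sema4c (0.04), a ligand of Plxnb2, changed sign between the numbers.

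In the other classes, Sema6b was the member whose populations did not overlap, at 1.91 and 1.76 in reporter+ and at 1.96 and 1.95 in reporter-. The gap was small, with a difference of −0.12 (SE 0.18), and it was −0.05 without reporter+ library 3 and −0.20 without reporter+ library 2. Sema7a, which is anchored to the membrane by a lipid and binds Plxnc1 and integrin β1, was at 0.33 and 1.64 in reporter+ and at 0.90 and 1.73 in reporter-. It was lower in reporter+ in both numbers (−0.57 and −0.10), with overlap of the populations. Sema6a (0.05), Sema6c (0.05) and Sema6d (0.18), transmembrane ligands of A plexins, and Sema5a (0.12), a ligand of Plxnb3, changed sign between the numbers.

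Among the plexins, 0 of 9 were higher in reporter+ in both numbers, against 22.1% of all genes, and 3 (33.3%) were lower in both, against 24.8%. Their median difference was −0.14, but 0.05 in number 2 and −0.36 in number 3. Plxnb2, a receptor of Sema4c, was at 5.26 and 5.14 in reporter+ and at 5.35 and 5.32 in reporter-, without overlap. The difference was −0.13 (SE 0.14), and without reporter+ library 3 it was −0.07. Plxnb3, the receptor of Sema5a, was at −6.68 and −7.15 in reporter+ and at −4.85 and −6.20 in reporter-. Its populations did not overlap either (difference −1.38, SE 0.83). The difference was −0.71 without reporter- library 2 and −2.06 without reporter- library 3, and with 1 added to the linear value it was −0.02.

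Plxna1, a receptor with neuropilin 1 for class 3 ligands and for Sema6d, was at 3.75 and 3.97 in reporter+ and at 3.92 and 4.39 in reporter-. It was lower in reporter+ within each number, by −0.18 and −0.42, with overlap of the populations. Plxnb1, the receptor of Sema4d, was at −1.61 and −1.66 in reporter+ and at −1.63 and −1.16 in reporter-. Reporter- library 3 was the higher one, and the other libraries were nearly level. Plxna2 (0.01), Plxna3 (−0.15) and Plxna4 (0.12), which take class 3 and class 6 ligands, Plxnc1 (0.23), the receptor of Sema7a, and Plxnd1 (−0.14), that of Sema3e, changed sign between the numbers.

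Ephrin ligands lay on both sides of 0 (3 of 8 above). Their median of −0.04 was 0.21 in number 2 and −0.17 in number 3. Efna1, a ligand of Epha2 that is induced by inflammatory signals, was at 2.58 and 1.75 in reporter+ and at 2.05 and 1.06 in reporter-. It was higher in reporter+ within each number, by 0.53 and 0.69, while reporter+ library 3 was below reporter- library 2. The difference was 0.61 (SE 0.47, adjusted p = 1), and it was 0.11 without reporter- library 3 and 1.11 without reporter- library 2. Efnb2, the ligand of Ephb4 in bone and in arteries, was at 1.40 and 1.36 in reporter+ and at 1.11 and 1.29 in reporter-. Both reporter+ libraries were the higher ones, with a difference of 0.18 (SE 0.21), which is within its error. It was 0.10 without reporter- library 2 and 0.27 without reporter- library 3.

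Efnb1, which is required for skeletal patterning, was at 2.62 and 3.37 in reporter+ and at 2.65 and 3.73 in reporter-, and the libraries parted by number. Efna2, a product of osteoclasts, was at 0.84 and 0.39 in reporter+ and at 0.78 and 0.53 in reporter-, again parted by number. Efna5 was higher in reporter+ in both numbers (0.41 and 0.35), and its populations overlapped by a narrow margin. Efna3 (−0.42) was lower in both numbers, and Efna4 (−0.05) and Efnb3 (−0.23) changed sign. Efna1, Efna3 and Efna4 lie side by side on chromosome 3, from 89271730 to 89338028, and had differences of 0.61, −0.42 and −0.05.

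**Figure D2:**
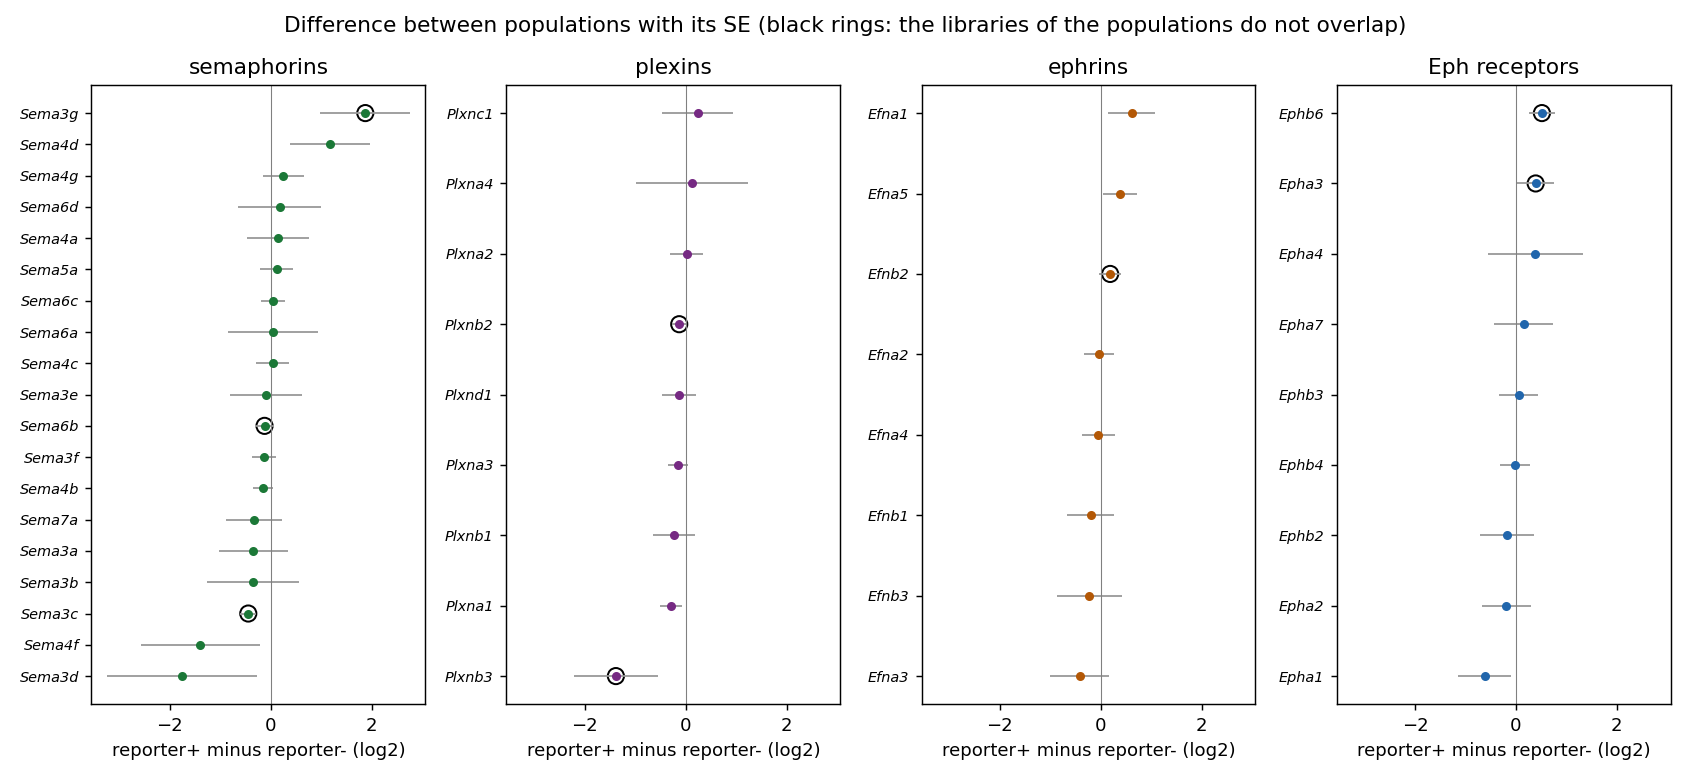
Log2 difference of reporter+ minus reporter- for the 45 members with 4 values, by family, with bars of 1 SE from limma and black rings where the libraries of the populations did not overlap. The bars are longest for members at low levels, such as Sema3d (SE 1.49), and short for Plxnb2 (SE 0.14) and Sema3c (SE 0.16).

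Eph receptors of class B bind mainly B ephrins. Ephb6, which has no kinase activity of its own, was at 4.45 and 3.81 in reporter+ and at 3.63 and 3.60 in reporter-. Reporter+ library 2 was well above the other three, and reporter+ library 3 was the next. The difference was 0.52 (SE 0.25, limma adjusted p = 1), with 0.83 in number 2 and 0.20 in number 3, and without reporter+ library 2 it was 0.19. Ephb6 is at 6:41603834-41620509, and Epha1 lies on the same chromosome at 42358487.

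Ephb4, the receptor of Efnb2 on osteoblasts, was at 3.42 and 3.88 in reporter+ and at 3.35 and 3.97 in reporter-. The libraries parted by number and not by population, with a difference of −0.01 (SE 0.29). Exons of Ephb4 lie opposite those of Zan, which was listed between −7.10 and −5.33. Ephb3 (0.06) and Ephb2 (−0.17) had higher values in number 3 in both populations. Ephb1 was at −7.64 and −7.66 in reporter+ and at −7.67 in reporter- library 3.

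Among A receptors, Epha3, which binds Efna5, was at −1.08 and −0.96 in reporter+ and at −1.49 and −1.33 in reporter-. The populations did not overlap and the difference was nearly the same in both numbers (0.41 and 0.38), with an SE of 0.37. With 1 added to the linear value, the difference of Epha3 was 0.12 in place of 0.39. Its ligand Efna5 had like differences. Epha1 was lower in reporter+ in both numbers, at −0.10 and −1.23 against 0.27 and −0.35 (difference −0.62, SE 0.53). Its difference was −1.19 without reporter+ library 2 and −0.06 without reporter+ library 3, and part of its exons lies opposite those of Zyx, which had −0.14.

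Epha2, the receptor of Efna1 and of Efna2, was at 2.80 and 1.81 in reporter+ and at 2.97 and 2.01 in reporter-. Both libraries numbered 2 were the higher ones. Epha4, a receptor for ephrins of both classes that is present in growth plates, was at −0.94 and 0.25 in reporter+ and at −1.92 and 0.45 in reporter-. Its difference was 0.98 in number 2 and −0.20 in number 3, as that of Epha7 (−0.45 and 0.76) also changed sign. Epha5 was blank in reporter+ library 2 and otherwise at −5.62 in reporter+ and at −5.59 and −6.31 in reporter-. Epha6 was blank in that same library and at −10.07, −9.78 and −10.07 in the others, at or near the lowest value of the table.

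**Figure D3:**
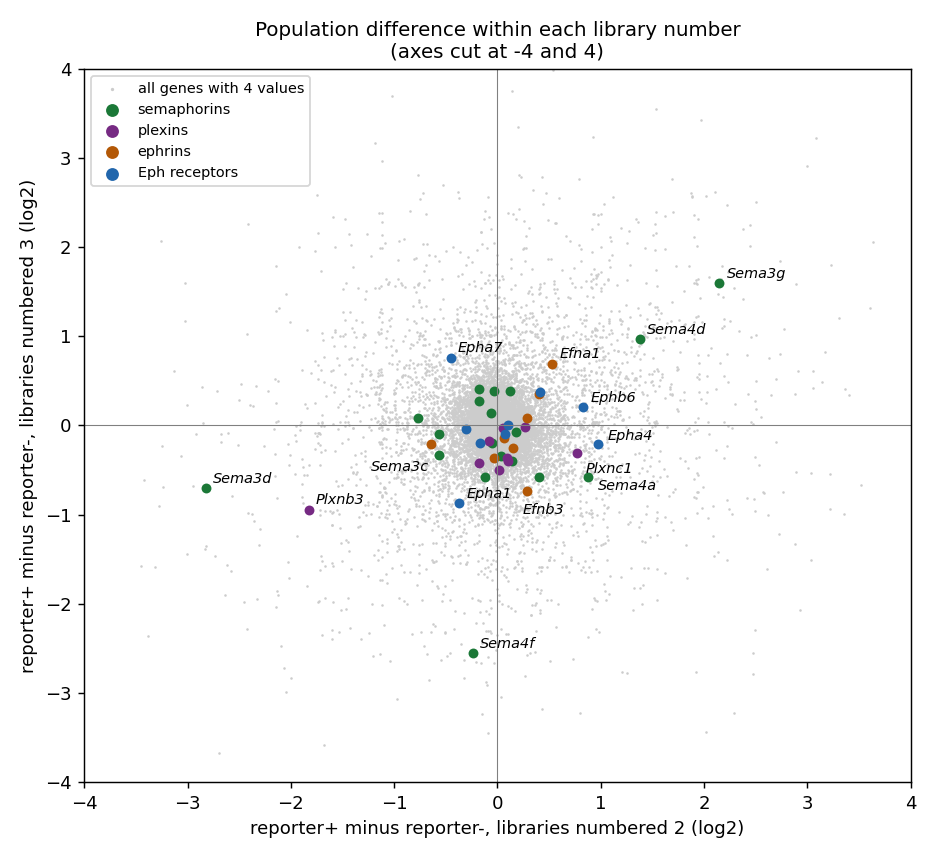
Log2 difference of reporter+ minus reporter- in the libraries numbered 2 (horizontal) and 3 (vertical), for all genes with 4 values (gray, 16 of them outside the axes) and for the members by family. Sema3g, Sema4d, Efna1 and Ephb6 lie in the upper right and Sema3d, Plxnb3 and Sema4f in the lower left, whereas 22 members lie elsewhere, with a change of sign.

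For most members, as for most genes, the libraries differed more by number than by population. Both libraries numbered 3 were above both numbered 2 for 21 members (46.7%), against 36.4% of all genes, and below them for 10 (22.2%), against 28.8%. The absolute difference between the numbers, averaged over the populations, had a median of 0.75 over the members and 0.31 over all genes. At a mean of at least 0, these medians were 0.57 and 0.24. The difference between the numbers was larger than that between the populations for 32 members (71.1%) and for 75.7% of all genes. The values of the 45 members had a Pearson correlation of 0.960 between the libraries numbered 2 and 0.975 between those numbered 3. Within a population it was 0.897 in reporter+ and 0.935 in reporter-, over the same genes and scale.

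Both ligands and receptors had large number differences, in either direction. Sema3d was higher in number 3 by 3.81 in reporter+ and 1.70 in reporter-. Sema6a was higher by 1.94 and 1.49, and Sema6d by 1.89 and 1.47, both of them ligands of A plexins. Sema3b went the other way, with −2.10 and −1.64, as did Sema4f, with −2.99 and −0.68. On average the lowest was Plxna4, a receptor for semaphorins of classes 3 and 6, with −2.35 and −2.07. Epha4 was higher in number 3 by 1.19 and 2.37. No test was run on the differences between the numbers.

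**Figure D4:**
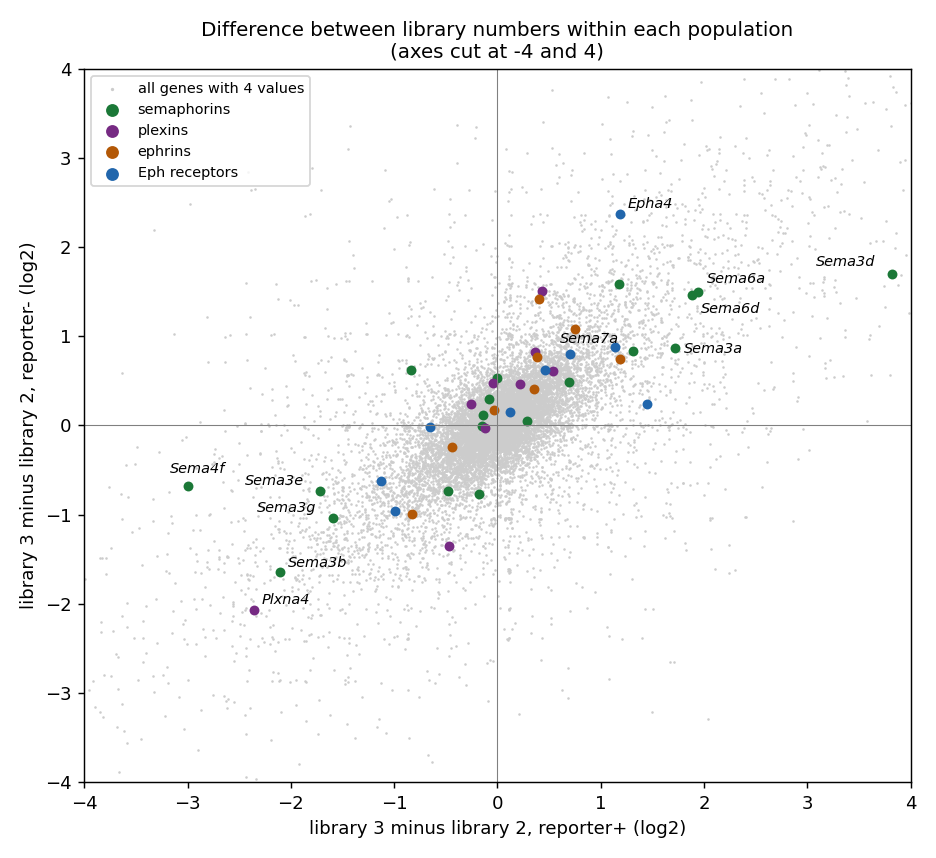
Log2 difference of library 3 minus library 2 within reporter+ (horizontal) and within reporter- (vertical), for all genes with 4 values (gray, 120 of them outside the axes) and for the members by family. Most members lie along the diagonal, from Plxna4 (−2.35 and −2.07) to Sema6a (1.94 and 1.49) and Sema3d (3.81 and 1.70).

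Partners of these families were read from a list of 69 genes, of which 67 had 4 values. At an adjusted p under 0.05 limma called none of them, and an unadjusted p below that level was found for Chl1 and Mical2 (2 of 67, against 0.909% of all genes; adjusted p = 1 for both). The difference lay above 0 for 27 and below 0 for 40 partners, and the populations did not overlap for 4 higher and 11 lower ones (5.97% and 16.4%, against 7.59% and 8.1% of all genes). Chl1, an adhesion molecule that joins neuropilin 1 in the receptor of Sema3a, was at 5.73 and 5.59 in reporter+ and at 5.03 and 3.95 in reporter-, without overlap (difference 1.17, SE 0.39). Mical2, an oxidase of the actin cytoskeleton from the family that acts behind plexins, was at 1.05 and 1.33 in reporter+ and at 1.88 and 1.72 in reporter- (difference −0.61, SE 0.22).

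The neuropilins themselves parted by number. Nrp1 was at 3.82 and 4.70 in reporter+ and at 3.61 and 4.61 in reporter-, and Nrp2 was at 4.31 and 3.30 in reporter+ and at 4.15 and 3.32 in reporter-. Thus Nrp1 was higher in number 3 and Nrp2 in number 2. Genes that act behind plexins lay below 0 in 21 of 28 cases (75%, against 50.9% of all genes), with a median of −0.07. The largest difference of this list went the other way, that of Rnd1 (0.90, SE 0.63). It was 0.96 in number 2 and 0.83 in number 3, with overlap of the populations. The paper lists Rnd1 among its genes significantly higher in reporter+. It lists Limk1 (−0.41 here, SE 0.59) among those significantly lower. Its methods do not say if the libraries were paired in that test. The populations did not overlap for 5 of the 28, all lower in reporter+ (17.9% lower, against 8.1% of all genes, and 0 higher, against 7.59%). These were Mical2, the GTPases Rras2 (−0.46) and Rhoa (−0.13), the actin regulator Cfl1 (−0.16) and the adaptor Gipc1 (−0.13). Genes that act behind Eph receptors and ephrins lay on both sides (13 above and 15 below, median −0.02). Without overlap, 3 of these 28 (10.7%, against 7.59% of all genes) were higher, namely Grip1 (1.51), Ptpn13 (0.14), a phosphatase of B ephrins, and the kinase Yes1 (0.14). Lower without overlap were 5 (17.9%, against 8.1%), namely Tiam1 (−0.26) and Chn1 (−0.69), which act on Rac, the kinases Abl1 (−0.16) and Rock2 (−0.26), and Anks1b (−0.80).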

How the data were processed

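Total RNA of 4 libraries, 2 per population, was sequenced, and the authors deposited log2 values that they had quantile normalized, 1 for each symbol in each library, leaving genes without signal blank. The submitters' processing notes name bcl2fastq 2.17.1.14, Partek 7.0 and GRCm38.p6. The aligner, the counting, the filters and the linear unit are not given in the sources used here, nor whether the counting used the strand. Columns were assigned to their population by their headings. The populations were compared in limma 3.58.1 (R 4.3.3) by lmFit and eBayes, two-sided, with a variance trend and no block, and p-values were adjusted after Benjamini and Hochberg over all 14415 genes with 4 values (threshold 0.05). The smallest exact two-sided permutation p with 2 against 2 libraries is 0.333, and it was therefore left out. The code was tested on simulated data with 200 changed genes.

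Members and lists were chosen with earlier results of these data known. Every member with a value is named, with all libraries given for members without overlap of the populations, with a difference above 0.5 and the same sign in both numbers, with a blank in some libraries, or with a known role in bone. Other partners named were chosen after their values were seen. Gene positions and promoter windows are from RefSeq and overlapping exons from GENCODE M21, both GRCm38.p6, and all 51 symbols were found in the RefSeq gene table. Marker sums are over 2 to the power of the log2 value, with a blank as 0. Alternatives were the library number as a block, no trend, a pseudocount of 1 on the linear value, a mean of at least 0, libraries centred on their median, genes with a value in at least 3 libraries, blanks at the minimum of the library, and leaving out each library. Summaries were made in Python 3.11.15.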

Additional observations from a re-analysis of the deposited data

How the results depend on the processing

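With 2 libraries per population and no depth, only differences well beyond the spread between the libraries could be called, and the lowest values, such as those of Sema3g and Plxnb3, have an unknown counting error. No member had an adjusted p under 0.05 in limma under any of the alternatives. The count of members with an unadjusted limma p under 0.05 was 1 as reported, against 0.909% of all genes. It was 0 without the variance trend (1.89% of all genes). Among members with a mean of at least 0 it was also 0 (0.606% of all genes at that level). With the number in the heading as a replicate block it was 8 (17.8%, against 6.33% of all genes), with the smallest limma adjusted p at 0.28 (Efna1) and 29 of all genes called, and it was 4 (8.89%, against 6.53% of all genes) with the block and without the variance trend, an alternative added after seeing the data, which called 0 of all genes. Same-numbered libraries are not stated to be pairs, and their deviations from the mean of the population had a correlation of 0.681 over all genes and 0.808 over the 45 members. Restricted to members with a mean of at least 0, the counts were smaller, since fewer members were counted. Without overlap of the populations, 2 (7.41%) were higher and 3 (11.1%) lower, against 6.45% and 7.42% of all genes at that level. In both numbers, 5 (18.5%) were higher and 9 (33.3%) lower, against 20.7% and 24.7% of those genes. With 1 library left out, the populations did not overlap for 7 to 17 members higher and 9 to 21 lower in reporter+. These counts were larger because a single library then stood for a population. No share of all genes is given with a library left out, so that these counts cannot be read against a background. The median difference of the members was then between −0.30 and 0.14. Leaving out a library also left the numbers unbalanced, and no count within both numbers could then be made. The block, the variance trend, the choice of genes and the filling of blanks cannot move the difference of a member with 4 values. The 255 differences of 22 members under the alternatives therefore include many that could not turn, and their count does not measure stability. Of the 255, 239 kept their direction, and the 16 that turned did so with a library left out, for 9 members, none of them called. Their ranges were −0.68 to 0.31 for Epha2, −0.80 to 1.57 for Epha4, −0.33 to 0.30 for Ephb4, −0.26 to 0.18 for Efna2, −0.74 to 0.34 for Efnb1, −1.21 to 0.51 for Sema3a, −3.67 to 0.14 for Sema3d, −2.89 to 0.10 for Sema4f and −0.99 to 0.32 for Sema7a. With a pseudocount of 1 on the linear value, the differences of low members were smaller, at −0.12 for Sema3d, −0.04 for Sema4f, −0.26 for Epha1, 0.08 for Epha4 and −0.07 for Plxnb1.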
